A study of Mus musculus with 57 samples.

Results

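The 6 genes described here handle the inhibitory transmitter GABA in astroglia. Slc6a11 encodes the GABA transporter GAT3. Abat encodes GABA transaminase, Aldh5a1 succinic semialdehyde dehydrogenase and Maob monoamine oxidase B. Gabbr1 and Gabbr2 encode the subunits of the GABA-B receptor. They were taken by symbol from a table of 21118 genes, in which all 6 have a row, and all 6 passed a filter on low counts that 20985 genes passed. Their levels are followed over 6 ages.

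The libraries hold ribosome-bound messenger RNA from the cerebral cortex of C57BL/6 mice of the genotype Aldh1l1-L10-GFP, which every group shares. In these mice the ribosomal protein L10 is joined to green fluorescent protein (GFP) and is made where Aldh1l1, a gene of astroglia, is active, and polysomes are pulled out of whole cortex with an antibody to GFP. The animals labelled female gave 4 libraries on postnatal day 1 (P1), 4 on P4, 8 on P7, 5 on P14, 3 on P35 and 4 as adults, and those labelled male gave 4, 4, 4, 5, 3 and 5. The labels name no treatment and no age in days for the adults. Unbound or whole-cortex RNA was not analysed here, so the values show what was in the pull-down and not how far it was enriched.

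GABA released at inhibitory synapses is cleared by transporters. GAT3 in the cortex is mainly a transporter of astrocytes. In mitochondria, GABA transaminase turns GABA into succinic semialdehyde, and succinic semialdehyde dehydrogenase turns that into succinate, which enters the citric acid cycle. Astrocytes can also make GABA from putrescine, a route in which monoamine oxidase B takes part. The GABA-B receptor is a pair of unlike subunits, of which the Gabbr1 product binds GABA and the Gabbr2 product carries the receptor to the surface and couples it to inhibitory G proteins.

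The genes lie apart in the genome (GRCm38, GENCODE release M21). Slc6a11 is at chr6:114131241-114249952 on the plus strand. Abat is at chr16:8513429-8621568 and Gabbr1 at chr17:37045966-37075067, both on the plus strand. On the minus strand, Aldh5a1 is at chr13:24907579-24937661, Maob at chrX:16709282-16817366 and Gabbr2 at chr4:46662305-46991873, and Maob is 21463 bases from Maoa, the gene of monoamine oxidase A. The counts cover whole genes, so exons and untranslated regions are not separated. Aldh5a1 is overlapped on the other strand by 2 genes, 1 of them in the table, and since the strand setting of the counting is not given in the sources used here, reads of the overlap cannot be told apart.

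Promoter sequence is shown for the 3 genes whose RefSeq window could be used here, of which Slc6a11 did not pass the tests of age and Aldh5a1 and Gabbr1 rose, so that the start regions can be set beside each other. Each line gives the 150 bases just before the annotated start in RefSeq on GRCm38.p6, read 5′ to 3′ on the gene's strand, at chr6:114131091-114131240, chr13:24937662-24937811 and chr17:37045816-37045965. Capitals mark matches on either strand to the core of the Sp1 motif, GGGCGG.
Slc6a11: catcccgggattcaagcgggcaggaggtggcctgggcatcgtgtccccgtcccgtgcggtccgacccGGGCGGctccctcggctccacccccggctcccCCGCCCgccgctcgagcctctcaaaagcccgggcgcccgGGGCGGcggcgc
Aldh5a1: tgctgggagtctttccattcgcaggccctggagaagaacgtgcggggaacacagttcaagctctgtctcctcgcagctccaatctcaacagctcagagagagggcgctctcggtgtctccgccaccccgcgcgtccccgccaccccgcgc
Gabbr1: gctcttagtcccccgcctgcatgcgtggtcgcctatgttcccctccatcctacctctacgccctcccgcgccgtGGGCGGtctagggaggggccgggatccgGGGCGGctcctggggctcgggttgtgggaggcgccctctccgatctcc
The Slc6a11 window held 3 such matches and 78.7% G or C, the Gabbr1 window 2 matches and 71.3%, and the Aldh5a1 window 0 matches and 64.7%, against a median of 54% over all promoters. Of 32851 promoter windows of 150 bases, 28.6% held the Sp1 core. The NFI half-site TTGGCA (7.04% of windows), the E-box CACGTG (4.3%) and the TATA box TATAAA (7.57%) matched in none of the 3 windows, where only these letters were searched, on both strands and without overlap between the motifs.

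Total counts ran from 14768178 to 48541139 per library, with a median of 24033399. At least 10 counts were found for 10085 genes in P1 female 4, which with P7 female 40 and P14 male 4 had the fewest, and for 15531 to 18138 genes in all others. Aldh1l1 stood at 10.1 CPM (counts brought to 1 shared library size after TMM scaling) in P1 female 4 and at 32.8 to 422 CPM in the others. Sex-linked genes went against the label in 6 libraries. From P1 to adult, 30 of 30 mature astrocyte markers rose, and their summed level went from 1387 to 9816 CPM in P1 libraries to 6439.7 to 38923 CPM in adults. All 19 oligodendrocyte and myelin markers rose (sums of 138 to 321 CPM, then 883 to 2710 CPM), as did 6 of 20 microglial markers (34.1 to 148 CPM, then 48.7 to 173 CPM). Of 32 neuronal markers 16 rose and 12 fell (3652 to 18775 CPM, then 5562 to 31678 CPM), and of 20 interneuron markers 4 rose and 6 fell (435 to 1492 CPM, then 391 to 1852 CPM). Of 18 endothelial and mural markers 3 rose and 2 fell, and of 15 radial glia and progenitor markers 4 rose and 9 fell. Over all genes, 21.8% rose and 19.5% fell. No marker of these lists was at 0 in all P1 or in all adult libraries.

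From P1 to adult, 5 of the 6 genes rose and Slc6a11 did not pass the test. Maob rose most, 14.3-fold, followed by Aldh5a1 with 3.41-fold, Gabbr1 with 2.88-fold, Abat with 2.70-fold and Gabbr2 with 2.60-fold. Over all genes, 21.8% rose and 19.5% fell in this comparison, with a median log2 change of 0.06. Changes are means of the labelled sexes from edgeR's quasi-likelihood F test with the replicate set in the model, and adjusted p-values are Benjamini-Hochberg values over all 21118 genes. The replicate set is the number that ends a library's description name (1, 2, 3, 4 or 6), or S for the 4 libraries at P7 from a second sequencing run alone. The labels do not say what the number stands for. A test of any difference among the 6 ages called the same 5 genes, where 43.5% of all genes were called, and gave Slc6a11 an adjusted p of 0.712. Between the first week (P1, P4 and P7) and the later ages the same 5 rose again, where 25.1% of all genes rose and 23.5% fell.

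**Figure D1:**
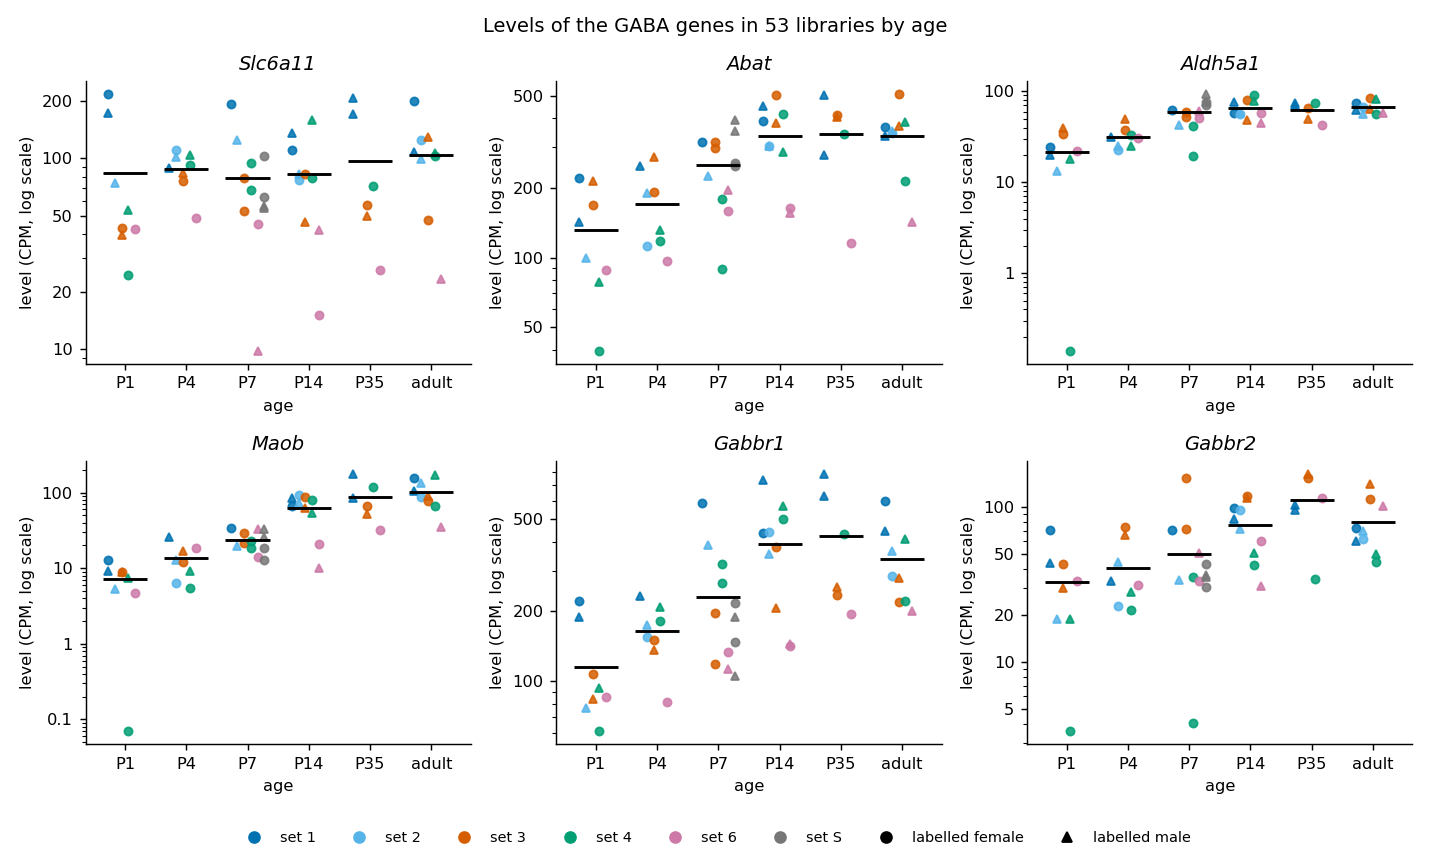
Level of each gene (CPM, log axis) in the 53 libraries by age, with 1 point per library, coloured by replicate set and shaped by labelled sex, and black lines at the mean of each age. The ages overlap for Slc6a11, whose set 6 libraries lie between 9.83 and 48.4 CPM and whose set 1 libraries lie between 88.5 and 217 CPM, while Maob climbs from a mean of 7.20 CPM at P1 to 102 CPM in adults.

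Slc6a11, the astrocyte GABA transporter, had means between 78.5 CPM at P7 and 104 CPM in adults and varied widely within each age. At P1 the 8 libraries ran from 24.5 to 217 CPM with a median of 48.5 CPM. At P4 they ran from 48.4 to 110 CPM (median 90.3, n = 8), at P7 from 9.83 to 193 CPM (median 65.2, n = 12), at P14 from 15.1 to 159 CPM (median 80.3, n = 10) and at P35 from 25.9 to 207 CPM (median 64.3, n = 6). In adults the 9 libraries ran from 23.4 to 199 CPM with a median of 107 CPM. The highest P1 library lay above every adult library and the lowest adult library below every P1 library, so the ages overlapped. The change from P1 to adult was 0.42 ± 0.27 on the log2 scale (SE, 95% interval -0.13 to 0.96, adjusted p = 0.222), and from the first week to the later ages it was 0.08 ± 0.16 (adjusted p = 0.726). Within the sets, adult minus P1 on the log2 scale was -0.41 in set 1, 0.59 in set 2, 0.91 in set 3, 1.53 in set 4 and -0.86 in set 6, so the direction was not shared.

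Abat, the transaminase that begins GABA breakdown, had a higher mean at each age up to P14 and means close to that of P14 afterwards. Its mean was 132 ± 66.3 CPM at P1 (SD, n = 8), 170 ± 66.2 at P4 (n = 8), 253 ± 87.9 at P7 (n = 12), 336 ± 115 at P14 (n = 10), 344 ± 135 at P35 (n = 6) and 336 ± 104 in adults (n = 9). The P1 libraries ran from 39.6 to 222 CPM (median 122) and the adult libraries from 143 to 510 CPM (median 352), and 7 of the 9 adult libraries lay above all P1 libraries. The log2 change was 1.43 ± 0.20 (SE, adjusted p = 1.08e-07). All 5 sets that hold both ages, with 1 or 2 libraries of each, had the higher level in adults. The log2 differences were 0.98, 1.80, 1.19, 2.37 and 0.70 in sets 1, 2, 3, 4 and 6.

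Aldh5a1, the enzyme of the next step, separated P1 from adult libraries without overlap. How common such a separation was over all genes is not given here. At P1 the 8 libraries ran from 0.141 to 39.1 CPM with a median of 21.2 CPM. The lowest value was that of P1 female 4, and the other 7 P1 libraries held at least 13.3 CPM. The mean was 31.8 ± 8.68 CPM at P4 and 58.9 ± 19.5 CPM at P7, and then 64.8 ± 15.7 (P14), 62.8 ± 13.5 (P35) and 67.1 ± 10.9 CPM (adult, SD). The lowest adult library, at 55.8 CPM, lay above the highest P1 library, with none between. The log2 change was 1.77 ± 0.33 (adjusted p = 3.02e-05). Without P1 female 4 it was 1.53, and adult minus P1 was 5.09 in set 4, which holds that library, against 1.63, 2.19, 1.01 and 1.35 in sets 1, 2, 3 and 6.

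The ratio of Abat to Aldh5a1 gives the balance of the 2 mitochondrial steps. Per length its medians in the first week were 4.59 (P1), 3.80 (P4) and 3.22 (P7), followed by 3.86 (P14), 3.97 (P35) and 3.78 (adult). The log2 ratio of CPM was 2.95 ± 1.29 at P1 and 2.25 ± 0.41 in adults (SD), and the groups overlapped. The difference within sets of -0.71 did not pass after adjustment (exact two-sided permutation test with labels exchanged within sets, p = 0.0417, adjusted over 5 ratios p = 0.0521), and without P1 female 4 it was -0.26.

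Maob, the monoamine oxidase of the putrescine route, changed most. The P1 libraries ran from 0.0703 CPM in P1 female 4 to 12.9 CPM (median 8.19, n = 8). Means were 13.4 ± 6.87 CPM at P4 (n = 8), 23.7 ± 7.35 at P7 (n = 12), 62.7 ± 27.7 at P14 (n = 10) and 88.2 ± 52.0 at P35 (n = 6). The adult libraries ran from 34.6 to 173 CPM (median 89.3, n = 9), all above the highest P1 library. The share of all genes that separate in this way is not given here. The log2 change was 3.84 ± 0.42 (adjusted p = 7.03e-10), and it was 3.54, 4.33, 3.20, 6.65 and 2.84 in sets 1, 2, 3, 4 and 6. Without P1 female 4 it was 3.60.

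Maoa, which encodes the other monoamine oxidase and lies beside Maob, moved from 55.1 ± 24.3 CPM at P1 to 41.4 ± 11.8 CPM in adults, a log2 change of -0.38 ± 0.23 that did not pass (adjusted p = 0.181). The median ratio of Maob to Maoa per length was 0.200 (P1), 0.307 (P4) and 0.499 (P7) in the first week, then 1.98 (P14), 3.52 (P35) and 3.44 (adult). Maob message was therefore the lesser of the pair in every P1 library, at 0.408 of Maoa or less, and the greater in every adult library, at 2.63 or more. The log2 ratio of CPM went from -3.10 ± 1.81 to 1.23 ± 0.35 (SD, n = 8 and 9) and the groups did not overlap. The difference within sets was 4.33 (exact permutation p = 0.000772, the smallest that 1296 exchanges can give, adjusted p = 0.00386), and 3.70 without P1 female 4.

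**Figure D2:**
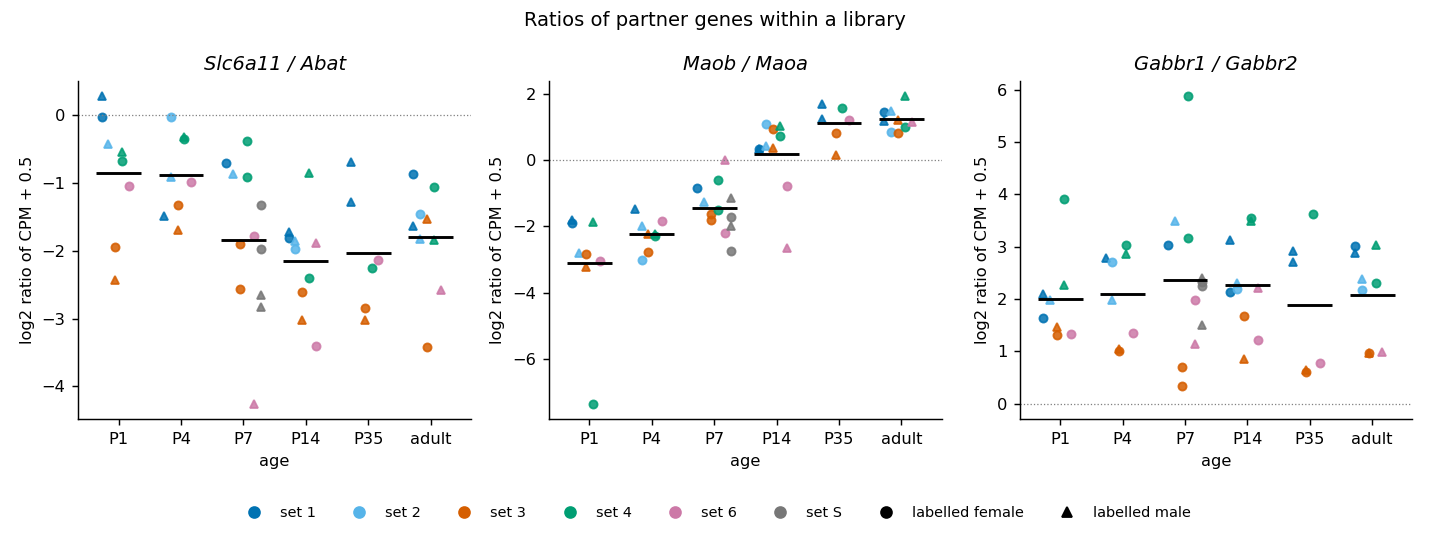
Log2 ratio of CPM + 0.5 between partner genes within each library by age, with 1 point per library coloured by replicate set and black lines at the mean of each age. The mean of Slc6a11 against Abat falls from -0.86 at P1 to -1.80 in adults, Maob climbs from below to above Maoa, and the mean of Gabbr1 against Gabbr2 lies between 1.88 and 2.36 at every age, with all set 3 libraries below all set 4 libraries.

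The transporter and the first breakdown enzyme also parted. The log2 ratio of Slc6a11 to Abat in CPM went from -0.86 ± 0.92 at P1 to -1.80 ± 0.78 in adults (SD, n = 8 and 9), and the groups overlapped. The difference within sets was -0.98 (exact permutation p = 0.00926, adjusted p = 0.0154). It no longer passed without the replicate block (adjusted p = 0.0602) or without P1 male 2 (adjusted p = 0.0540).

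Gabbr1, the GABA-binding subunit, had its highest means from P14 on. Its mean was 115 ± 58.0 CPM at P1 (SD, n = 8), 165 ± 46.6 at P4 (n = 8), 232 ± 142 at P7 (n = 12), 390 ± 190 at P14 (n = 10), 421 ± 239 at P35 (n = 6) and 336 ± 132 in adults (n = 9). The P1 libraries ran from 61.0 to 221 CPM (median 89.4) and the adult libraries from 202 to 600 CPM (median 284). Only P1 female 1 among the P1 libraries reached the adult range. The log2 change from P1 to adult was 1.53 ± 0.19 (SE, adjusted p = 1.82e-08), and it was 1.34, 2.07, 1.38, 2.00 and 1.24 in sets 1, 2, 3, 4 and 6.

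Gabbr2, the coupling subunit, rose as well, with more scatter. The P1 libraries ran from 3.59 to 70.8 CPM (median 31.8), and means were 40.3 ± 19.9 CPM at P4, 50.1 ± 37.7 at P7, 76.6 ± 30.3 at P14 and 111 ± 46.2 at P35 (SD). The adult libraries ran from 44.4 to 141 CPM (median 70.1), and 4 of 9 lay above all P1 libraries. The log2 change was 1.38 ± 0.30 (adjusted p = 0.000287), and it was 0.25, 1.79, 1.81, 2.49 and 1.59 in sets 1, 2, 3, 4 and 6. In sets 1, 2 and 4 alone, which hold fewer libraries, it was 1.16 and did not pass (adjusted p = 0.0901).

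Both receptor subunits rose by similar amounts, so their balance was not seen to move with age. The log2 ratio of Gabbr1 to Gabbr2 in CPM was 2.00 ± 0.85 at P1 and 2.08 ± 0.88 in adults (SD), and the difference within sets was 0.06 (exact permutation p = 0.817). It lay between -0.07 and 0.25 with each library left out. Gabbr1 message exceeded Gabbr2 message per length in all 53 libraries, by 1.10 to 56.6 times, with the extreme in P7 female 40. The median per-length ratio was 1.69 in set 3, 2.11 in set 6, 4.11 in set 2, 4.26 in set S, 6.23 in set 1 and 7.88 in set 4.

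Per kilobase of exon, the order of the genes changed between birth and adulthood. At P1 the mean levels in CPM per kilobase were 17.0 ± 8.55 for Abat, 16.5 ± 14.1 for Slc6a11, 14.8 ± 7.47 for Gabbr1, 4.90 ± 3.05 for Gabbr2, 3.80 ± 2.13 for Aldh5a1 and 2.58 ± 1.38 for Maob (SD, n = 8). The first 3 lay within each other's spread, as did the last 3. In adults the means were 43.4 ± 13.5 for Abat, 43.3 ± 17.0 for Gabbr1, 36.7 ± 15.9 for Maob, 20.7 ± 9.86 for Slc6a11, 11.9 ± 1.93 for Aldh5a1 and 11.9 ± 4.81 for Gabbr2 (n = 9). Maob had gone from the last place to the third, and Slc6a11 from the second to the fourth.

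Libraries rich in astrocyte markers were also rich in these transcripts. All 30 of these markers rose from P1 to adult, so age and marker level cannot be told apart for any of the 6 genes. Over the 53 libraries, Pearson's r with the mean log2 level of the 30 mature astrocyte markers was 0.92 for Gabbr1, 0.81 for Maob, 0.65 for Abat, 0.62 for Slc6a11, 0.49 for Aldh5a1 and 0.48 for Gabbr2, a description over libraries that share ages, sets and depth. With the oligodendrocyte and myelin markers, r was 0.81 for Gabbr2, 0.78 for Maob, 0.65 for Abat, 0.60 for Aldh5a1, 0.49 for Gabbr1 and -0.06 for Slc6a11. For Abat, Aldh5a1 and Gabbr2 the tie was thus no closer with the astrocyte markers. With the astrocyte marker level as a covariate beside the replicate set, the log2 change from P1 to adult was 0.17 for Abat, -0.19 for Aldh5a1, 1.39 for Maob, -0.03 for Gabbr1 and -0.27 for Gabbr2. None of these passed (adjusted p from 0.263 for Maob to 0.972 for Gabbr1). Slc6a11 was at -1.66 (adjusted p = 0.0123), against a median of -0.38 over all genes in that model. Its direction thus depended on the covariate. With the mean log2 level of the 32 neuronal markers as the covariate, all 6 genes rose, Slc6a11 by 0.88 (adjusted p = 0.0204). In these pull-downs from bulk tissue, a larger share of mature astrocytes and more message per astrocyte cannot be told apart.

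**Figure D3:**
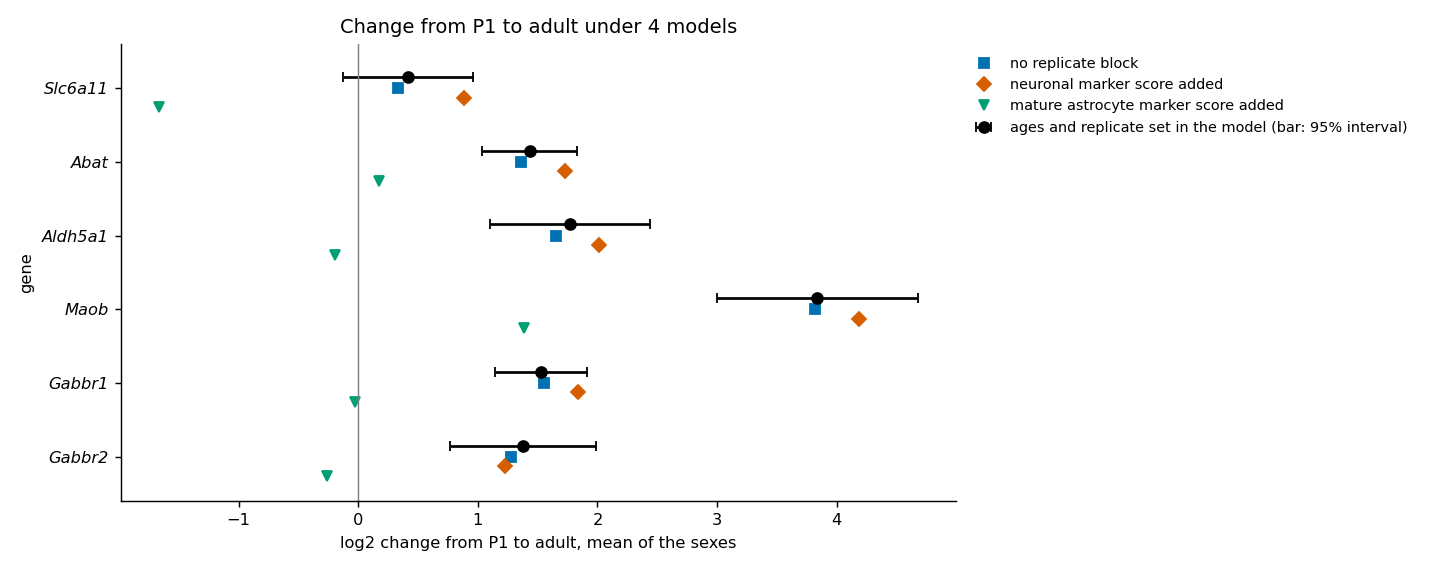
Log2 change from P1 to adult of each gene, as the mean of the labelled sexes, under 4 models, where black points carry 95% intervals and the other points are the same contrast without the replicate block or with a marker level added. The changes stay above 0 for all genes except where the astrocyte marker level is added, which puts Slc6a11 at -1.66 and the others except Maob near 0.

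No single step between neighbouring ages was called for any of the 6 genes after adjustment. The share of all genes called was 0.44% for P1 to P4, 1.67% for P4 to P7, 3.3% for P7 to P14, 1.15% for P14 to P35 and 0% between P35 and adult. Before adjustment, 4, 3, 3, 0 and 0 of the genes had p under 0.05 in these steps. The Maob steps were 1.07 ± 0.39, 1.12 ± 0.40, 0.98 ± 0.40, 0.35 ± 0.39 and 0.31 ± 0.40 on the log2 scale (SE). Those of Gabbr1 were 0.64 ± 0.19, 0.68 ± 0.20, 0.47 ± 0.19, -0.01 ± 0.20 and -0.26 ± 0.20. Those of Abat were 0.46 ± 0.20, 0.63 ± 0.21, 0.41 ± 0.20, -0.16 ± 0.20 and 0.11 ± 0.21. The point estimates for these 3 genes were therefore largest in the first 3 steps. From P4 to P7 the adjusted p was 0.0653 for Gabbr1, and without the 3 libraries of fewest genes Abat (0.72), Aldh5a1 (0.79), Maob (1.11) and Gabbr1 (0.68) passed in that step. DESeq2 called Gabbr1 in each of the first 2 steps, and limma voom called Gabbr1 from P4 to P7 and Maob from P7 to P14. From P35 to adult, edgeR called 0 genes of any kind, with 884 at an unadjusted p under 0.05, while DESeq2 called 114 and limma voom 0.

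Both labelled sexes showed the rise. From P1 to adult, 4 of the 6 genes rose in females, where 11.7% of all genes rose and 11.6% fell, and 5 rose in males, where 14.1% rose and 12.7% fell. The difference in count is Gabbr2, at 1.16 ± 0.44 in females (SE, adjusted p = 0.05003) and 1.59 ± 0.42 in males (adjusted p = 0.00391). Without P1 female 1, Gabbr2 passed in females too, and without P1 female 4 it was 0.76 (adjusted p = 0.205). The sex difference in the change from P1 to adult was itself tested and called for 0 of the 6 genes and 0% of all genes, with 1041 genes at an unadjusted p under 0.05 and 133 called by DESeq2 and 0 by limma voom. The test over all steps together also called 0% of genes in edgeR (778 unadjusted), 2 in DESeq2 and 0 in limma voom. The widest of these differences among the 6 was that of Gabbr1, -0.74 ± 0.38 in females minus males (95% interval -1.51 to 0.03, adjusted p = 1). As a mean over the ages, females minus males lay between -0.12 ± 0.22 for Maob and 0.06 ± 0.16 for Slc6a11, and 0 of the 6 genes were called, against 0.0284% of all genes. The 6 libraries whose sex-linked genes go against the label, among them adult male 60, stayed in their labelled groups. In 5 libraries the description name carries the letter of the other sex. The comparisons by sex thus rest on labels that are in doubt for these libraries.

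The test of the replicate set called 4 of the 6 genes. That lies near the 69.1% called over all genes, so differences between sets were not particular to these genes. The 4 genes were Gabbr1 (adjusted p = 1.17e-09), Slc6a11 (1.23e-07), Abat (4.93e-07) and Gabbr2 (1.04e-05). Aldh5a1 (0.203) and Maob (0.0621) did not pass. Slc6a11 ran from 88.5 to 217 CPM in the 10 libraries of set 1 (median 172) and from 9.83 to 48.4 CPM in the 8 libraries of set 6 (median 33.9), so these sets did not overlap at any age. With age and sex in the model, Slc6a11 in set 6 was lower than in set 1 by -2.40 ± 0.30 on the log2 scale, Gabbr1 by -1.84 ± 0.20 and Abat by -1.21 ± 0.20 (SE). Gabbr2 followed another order, with set 3 at 0.45 ± 0.27 and set 4 at -1.28 ± 0.28 against set 1.

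**Figure D4:**
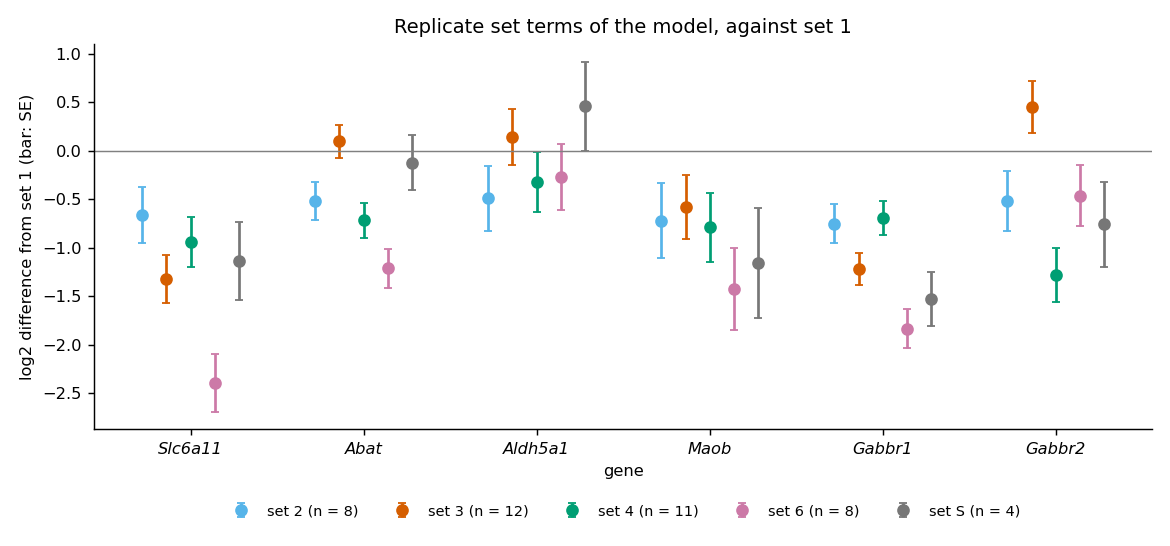
Difference of each replicate set from set 1 on the log2 scale, from the model with age and sex, with bars of 1 SE, for the 6 genes. Slc6a11 and Gabbr1 lie lowest in set 6, Gabbr2 lies lowest in set 4 and above 0 in set 3, and Aldh5a1 lies between -0.49 and 0.46.

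Marker sums moved with the sets. The median sum of the mature astrocyte markers was 23185 CPM in set 1, 13212 in set 2, 8835 in set 4, 5419 in set 3, 4347 in set S and 3573 in set 6. The median sum of the neuronal markers was 4407 CPM in set 1, 5530.1 in set 2, 8456 in set 4, 15602 in set 3, 17589 in set S and 24513 in set 6. Over the 53 libraries, r with the mean level of the neuronal markers was -0.68 for Slc6a11, -0.42 for Gabbr1, 0.07 for Abat, 0.22 for Aldh5a1, -0.01 for Maob and 0.27 for Gabbr2. For Gabbr2, r was 0.84 with the microglial and 0.81 with the oligodendrocyte markers, above its r of 0.48 with the astrocyte markers. Once groups and sets were taken out, these values were 0.74, 0.72 and 0.52, and r with the interneuron markers was 0.60. Gabbr2 was lowest in P1 female 4 (3.59 CPM) and P7 female 40 (4.06 CPM), both among the libraries with the fewest genes. How far its r rests on them was not tested. For Slc6a11, r with the microglial and oligodendrocyte markers was -0.07 and -0.06 before, and 0.39 and 0.06 after. The part of other cell types in these levels was not tested.

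The other genes of the pathway were taken from fixed lists, and counts below are of genes that rose or fell from P1 to adult. They are to be read against the 21.8% of all genes that rose and the 19.5% that fell. The counts that fell on the putrescine list and among the GABA-B receptor partners lie near that share. Of the 2 enzymes that make GABA from glutamate, Gad1 rose from 104 ± 81.8 to 225 ± 217 CPM (log2 change 1.17 ± 0.24, adjusted p = 0.000137), while Gad2 was at 0.53 ± 0.26 (adjusted p = 0.104). Both are defining genes of inhibitory interneurons, and they are among the interneuron markers above.

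Of 10 measured genes of the putrescine route, 4 rose and 2 fell (median log2 change 0.24). Aldh1a1, an aldehyde dehydrogenase that can finish this route, rose from 11.1 ± 14.2 CPM to 458 ± 254 CPM (SD, log2 change 5.57 ± 0.54, adjusted p = 4.45e-11). Sat1, the acetyltransferase of polyamines, rose by 1.34 ± 0.30 (adjusted p = 0.000336). Odc1, which makes putrescine, fell from 245 ± 44.4 to 106 ± 41.3 CPM (-1.37 ± 0.21, adjusted p = 1.64e-06), and Azin1, which shields the Odc1 product from breakdown, fell as well (-0.75 ± 0.15, adjusted p = 9.01e-05). The putrescine-making gene thus fell while Maob and Aldh1a1 rose.

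Of 10 genes around succinic semialdehyde and succinate, 8 rose and 0 fell (median 0.73). Suclg1 and Ogdh, of the neighbouring steps of the citric acid cycle, rose by 1.16 ± 0.16 (adjusted p = 6.66e-08) and 1.13 ± 0.16 (adjusted p = 1.35e-07). Sdha and Sdhc, of the complex that oxidises succinate, rose by 1.06 ± 0.15 (adjusted p = 1.86e-07) and 0.78 ± 0.14 (adjusted p = 2.72e-05).

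Of 14 partners and effectors of the GABA-B receptor, 5 rose and 3 fell (median 0.46). Rgs7bp, an anchor of RGS proteins, rose from 38.1 ± 14.0 to 331 ± 148 CPM (3.06 ± 0.23, adjusted p = 1.12e-13). Kcnj9, a subunit of G protein-gated potassium channels, rose by 2.71 ± 0.38 (adjusted p = 1.42e-07), and Kctd16, an auxiliary subunit of the receptor, by 2.67 ± 0.45 (adjusted p = 6.28e-06). Gnai3, an inhibitory G protein subunit, fell from 190 ± 69.2 to 71.4 ± 30.8 CPM (-1.46 ± 0.27, adjusted p = 2.05e-05).

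Of 15 measured subunits of the ionotropic GABA-A receptor, 5 rose and 4 fell (median 0.50). Gabrb1 rose from 19.5 ± 8.43 to 77.9 ± 20.2 CPM (2.08 ± 0.24, adjusted p = 1.89e-09). Gabrd rose from 0.462 ± 0.539 to 10.4 ± 7.32 CPM (5.02 ± 0.71, adjusted p = 2.21e-07), and Gabra5, a subunit of early forms of the receptor, fell by -1.08 ± 0.25 (adjusted p = 0.000467). The sum of this list was 125 to 295 CPM in P1 libraries and 171 to 559 CPM in adults. With DESeq2's size factors or with library totals in place of TMM, every gene of these lists named here with a change kept its direction and call. Library totals gave 5 GABA-A subunits that rose and 5 that fell. Without the replicate block Gad1 did not pass, 2 genes of the putrescine route and 5 of the succinate steps rose, and 1 receptor partner fell. With the astrocyte marker level as a covariate, both enzymes of GABA synthesis rose, 0 genes of the putrescine route rose and 1 fell, and 1 gene of the succinate steps rose and 2 fell. In that model 5 partners of the GABA-B receptor rose and 2 fell, and 3 GABA-A subunits rose and 0 fell. The shares of all genes that rose or fell in these other models are not given here.

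The genes most alike over the 53 libraries were sought among 11110 genes with a mean of at least 5 CPM, by Pearson's r of log2 CPM. Maob was most like Pygm (muscle glycogen phosphorylase, r = 0.97), Prex2 (0.96) and Aldh1a1 (0.96). Aldh5a1 was most like Kcnc4 (0.94), Ranbp10 (0.94) and Sesn3 (0.93), and Gabbr1 most like Gpr37l1 (0.92), Htra1 (0.90) and Chst1 (0.90). Gabbr2 was most like Glrb (0.91), the beta subunit of the glycine receptor, Atp1b1 (0.90) and Enpp2 (0.90), the last of which is among the oligodendrocyte markers above. Abat was much like Pfkm (0.88) and Dmd (0.87), and Slc6a11 most like Fads2 (0.87), Slc27a1 (0.87) and Tmem115 (0.86). Once groups and sets were taken out, r was 0.94 for Maob with Pygm, 0.91 for Aldh5a1 with Kcnc4 and 0.57 for Gabbr1 with Gpr37l1. P1 female 4, at 0.0703 CPM of Maob and 0.141 CPM of Aldh5a1, lay far below the other P1 libraries. How far these values of r rest on that library was not tested. Among the 6 genes themselves, r was highest between Abat and Maob (0.83) and between Aldh5a1 and Maob (0.82), and lowest between Slc6a11 and Gabbr2 (0.16).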

How the data were processed

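Ribosome-bound RNA of mouse cortex was measured in 53 libraries, 1 per animal, and 4 animals at P7 labelled as sequenced in 2 runs have 1 column each. The deposited values are raw counts per gene, for which the submitters' processing notes name CASAVA, HISAT2, SAMtools and featureCounts, without versions, and the build GRCm38.p5. Per the labels' protocols, poly(A) RNA was selected and strand-marked libraries were made. What annotation and strand setting were used and how repeat runs were joined is not given in the sources used here.

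Counts were fitted with edgeR 4.0.16 (limma 3.58.1, R 4.3.3): TMM scaling, robust dispersions and the quasi-likelihood F test, with 12 groups of labelled sex and age and the replicate set as terms (17 columns) and no gene filter. Adjusted p-values are Benjamini-Hochberg values over 21118 genes, with a threshold of 0.05. SEs were taken from the log2 change and the F value. CPM uses TMM-scaled library sizes, and CPM per kilobase divides by the merged exon length in GENCODE M21. Ratios used CPM plus 0.5 and an exact permutation test within sets. Alternatives were other scalings, DESeq2 1.42.0, limma voom, a low-count filter, other set terms, marker levels as covariates and libraries left out.

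Members and lists were chosen with earlier results of these data known. All 6 members are named in every comparison, up to 4 genes of each pathway list by smallest adjusted p, and the 3 most alike genes of each member, apart from some that are not reported here. The labels call the libraries independent samples without naming litters, so litters could not be taken into account. The edgeR p-values rest on the spread between animals that is left after the terms for group and set.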

Additional observations from a re-analysis of the deposited data

Results flagged for a closer look

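Libraries far from the rest of their group of labelled sex and age were sought for the 6 genes in 60 groups of 4 to 8 libraries with Dixon's test at the 95% level, which chance passes in about 1 of 20 groups. It marked 9 values. Slc6a11 stood at 217 CPM in P1 female 1, where the other 3 libraries held 24.5 to 43.3 CPM, and at 193 CPM in P7 female 10, where the other 7 held 45.5 to 102 CPM. Adult male 60 was low in Slc6a11 (23.4 CPM against 99.2 to 128 CPM) and in Abat (143 CPM against 335 to 386 CPM). Gabbr1 was high in P1 male 1 (189 CPM against 76.6 to 93.5 CPM), in P7 female 10 (585 CPM against 119 to 321 CPM) and in adult female 1 (599.8 CPM against 219 to 284 CPM). Gabbr2 was high in P7 female 3 (155 CPM against 4.06 to 72.4 CPM) and in P7 male 6 (50.8 CPM against 34.0 to 36.6 CPM). All 5 high values of Slc6a11 and Gabbr1 belong to set 1, and adult male 60 belongs to set 6 and is among the libraries whose sex-linked genes go against the label. What set these libraries apart was not tested.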

How the results depend on the processing

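Of 352 values recomputed under other settings than leaving out 1 library, 317 kept their direction and call. More of the exceptions came with the mature astrocyte marker level as a covariate than with any other setting. That model left 1 gene called from P1 to adult, in each labelled sex and from the first week to the later ages, and 2 over all ages. Its changes from the first week to the later ages were -1.32 for Slc6a11 (adjusted p = 0.00189), 0.068 for Abat, -0.32 for Aldh5a1, 0.76 for Maob, 0.019 for Gabbr1 and -0.047 for Gabbr2. Those from P1 to adult were -1.66, 0.17, -0.19, 1.39, -0.029 and -0.27 in this order. The neuronal covariate took Slc6a11 to 0.88, past the threshold, and called 1 gene from P1 to P4 and 1 from P4 to P7. Slc6a11 from the first week to the later ages was -0.008 on library totals and -0.038 without the 3 libraries of fewest genes. Sets 1, 2 and 4 alone gave Gabbr2 1.16 from P1 to adult, past no threshold, 3 genes in males and 1 gene for the set.

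In steps where 0 genes were called, DESeq2 called 1 from P1 to P4 and 1 from P4 to P7, limma voom 1 from P4 to P7 and 1 from P7 to P14, and the fit without the 3 libraries of fewest genes 4 from P4 to P7. Taking the second-run libraries S1 and S2 as sets 1 and 2 called 1 from P4 to P7 and 3 from P7 to P14. In each case the cause was not tested. On library totals the median change of all genes from P1 to adult was -0.06 in place of 0.06.

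The numbers that name the sets carry no stated meaning. After group means were taken out, libraries that share a number had a median correlation over genes of 0.58 (212 of 223 pairs above 0.1) against -0.15 for other pairs, and 44 of 53 libraries correlated best with one of their own number, a hint from the data. Without the replicate block, 1 gene (Maob) was called from P7 to P14, 3 in females and 4 in males, the ratio of Slc6a11 to Abat was -0.95 (adjusted p = 0.0602), and 5725 of all genes were called from P1 to adult in place of 8718. With a pseudocount of 0 the ratio of Abat to Aldh5a1 was -0.99 and passed.

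With each library left out, dispersions held from the full fit, 920 of 933 values kept direction and call. The genes called stayed at 5 from P1 to adult, from the first week to the later ages and in males, at 4 to 5 in females, and at 0 from P7 on. They ran from 0 to 1 from P1 to P4 (1 without P1 female 6) and from P4 to P7 (1 without P4 female 6, P7 female 30 or P7 male S2). Changes from P1 to adult ran from 0.22 to 0.57 for Slc6a11, 1.27 to 1.53 for Abat, 1.53 to 1.90 for Aldh5a1, 3.60 to 3.94 for Maob, 1.38 to 1.65 for Gabbr1 and 1.18 to 1.604 for Gabbr2. The ratio of Abat to Aldh5a1 ran from -0.94 to -0.26 and passed without P1 female 3, P1 male 4, adult female 3 or adult male 3, that of Slc6a11 to Abat from -1.20 to -0.87, and that of Gabbr1 to Gabbr2 from -0.0653 to 0.25. Leaving out single libraries was not run for the tests over all ages, of sex and of the set. The lowest values rest on few counts, as P1 female 4 held 1 count of Maob and 2 of Aldh5a1 in a total of 16112635. P14 male 4, with a lower total of 14768178, held 477 of Maob and 698 of Aldh5a1. What set P1 female 4 apart was not tested.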
